A study of Mus musculus with 2 samples.

Results

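Rara, Rarg and Rxra encode retinoic acid receptors, and Dhrs3 and Tgm2 are genes known to be induced by retinoic acid. These 5 genes were taken by name from the deposited table of 17238 genes, and all 5 were found. They were followed across sorted gut lymphocytes of small intestine and colon. The cells were innate lymphoid cells (ILCs) sorted for the interleukin-7 receptor alpha chain (IL7ra+) from C57BL/6 mice aged 8 weeks that the sample titles call fed. Each tissue was a pool of 8 mice and gave 1 droplet library (10x Genomics 3′ chemistry, which counts transcript ends), so there was no replicate, no test was run, and tissue and library cannot be told apart. The rule also defined 5 groups of cells by at least 1 unique molecular identifier (UMI, a counted transcript molecule) of Ccr6, Ncr1, Gata3, Klrd1 or Cd3e, and a cell could fall into several groups. Small intestine gave 541 Ccr6+, 1605 Ncr1+, 1643 Gata3+, 172 Klrd1+ and 429 Cd3e+ cells, and colon gave 357, 665, 4218, 482 and 1384. Of the Ccr6+ cells, 21.8% in small intestine and 34.7% in colon also carried a Gata3 UMI.

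Retinoic acid is made from vitamin A by gut epithelium and dendritic cells, and it binds RAR proteins, which pair with RXR proteins on DNA. The paired receptors hold corepressors on their targets until the ligand arrives and then recruit coactivators. In the gut, retinoic acid is known to give lymphocytes the homing receptor Ccr9 and to be needed for normal numbers of type 3 ILCs (ILC3s), which make interleukin-22. Dhrs3 turns retinaldehyde back into retinol and is a feedback gene that limits retinoic acid, and Tgm2 is a transglutaminase that crosslinks proteins.

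In the GENCODE annotation of GRCm38, Rara (ENSMUSG00000037992) lies at chr11:98927818-98974942 on the plus strand and Rarg (ENSMUSG00000001288) at chr15:102234938-102257517 on the minus strand. Rxra (ENSMUSG00000015846) lies at chr2:27676440-27762957 on the plus strand. Dhrs3 (ENSMUSG00000066026) lies at chr4:144892827-144928209 on the plus strand, and Tgm2 (ENSMUSG00000037820) at chr2:158116402-158146436 on the minus strand. Each is a protein-coding gene.

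The classical sites of RAR and RXR pairs are direct repeats of a 6-base half-site. The half-site AGGTCA was searched on both strands. The same was done for the variant form AGTTCA. A further variant form searched was GGGTCA. The last variant form searched was GGTTCA. The windows were RefSeq promoter stretches of 300 bases (GRCm38.p6), 250 before and 50 after each start. Any of these half-sites was present in 43.7% of 32851 windows, so a lone half-site is common. A direct repeat with 5 bases between the half-sites was present in 0.0974% of windows, one spaced by 1 in 0.222% and one spaced by 2 in 0.268%. Among 49 searched genes of the pathway, the repeat spaced by 5 was found in Rarb and Cyp26a1, which are shown because they give the textbook form of the element, with half-sites in capitals:
Rarb (chr14:16575508-16575534, minus strand, inside an annotated exon, half-sites starting 53 and 42 bases before the start): ggaagGGTTCAccgaaAGTTCActcgc
Cyp26a1 (chr19:37697771-37697797, plus strand, half-sites starting 32 and 21 bases before the start): aaagaTGAACTttgggTGAACTaattt
Of the 5 genes, 4 had promoter windows, 11 in all, and 0 of the 4 held the repeat spaced by 5. The 250 bases before a start of Dhrs3 and of Rarg are shown because these genes lay furthest to opposite sides between the tissues. The Dhrs3 windows held 0 half-sites, and the Rarg stretch held 1, TGACCT, starting 225 bases before the start and in capitals:
Dhrs3 (chr4:144892577-144892826, plus strand): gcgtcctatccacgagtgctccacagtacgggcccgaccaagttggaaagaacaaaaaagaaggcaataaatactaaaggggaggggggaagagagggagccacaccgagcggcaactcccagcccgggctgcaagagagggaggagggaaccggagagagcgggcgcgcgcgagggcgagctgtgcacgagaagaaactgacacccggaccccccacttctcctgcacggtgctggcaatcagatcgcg
Rarg (chr15:102257523-102257772, minus strand): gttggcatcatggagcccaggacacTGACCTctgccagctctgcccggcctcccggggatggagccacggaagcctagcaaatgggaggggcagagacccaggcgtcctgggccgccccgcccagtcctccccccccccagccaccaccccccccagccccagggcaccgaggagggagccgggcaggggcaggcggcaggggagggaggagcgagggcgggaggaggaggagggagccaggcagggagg
These letters describe the windows and are no measure of binding.

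The small intestine library held 5490 cells with 15080081 UMIs and the colon library 7549 cells with 22332691 UMIs, with medians of 2579 and 2600 UMIs per cell. Levels are UMIs of a gene summed over a group, per 1000000 UMIs of that group (CPM), and each interval is a 95% interval for counting error, which does not cover variation between mice. The count reads transcript ends and is not scaled by length, so levels are compared for the same gene and not between genes. The median gene lay 0.20 higher in small intestine on the log2 scale over all cells, and 0.15 to 0.21 higher within the 5 groups, so a ratio near this shift is no difference from the typical gene. The groups were checked against other marker genes. Gata3+ cells, named for a defining factor of type 2 ILCs (ILC2s), carried Klrg1 at 293.4 CPM in small intestine and 450.3 in colon, but also Il22, the interleukin-22 gene of ILC3s, at 2454 and 1044. Ccr6+ cells, named for a receptor of lymphoid tissue inducer-like ILC3s, carried Il22 at 7430 and 6851 CPM. Klrd1+ cells carried Klrb1c at 421.5 and 293.5 CPM, with Eomes at 4.26 and 6.37, but also 7 T cell markers at a sum of 2729 and 1415 CPM and Il22 at 1469 and 1528. Of the Klrd1+ cells, 52.3% and 45.02% also carried an Ncr1 UMI. The Ncr1+ groups were less alike, with a Klrd1 UMI in 5.61% of small intestine and 32.6% of colon Ncr1+ cells. A Gata3 UMI was carried by 23.2% and 31.4% of them. Cd3e+ cells, from a sort labelled as ILCs, carried the T cell receptor gene Trdc at 1481 and 1456 CPM.

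Rara, the most widely expressed of the retinoic acid receptors in blood cells, was close to level between the tissues. Over all cells it was at 62.7 CPM in small intestine (946 UMIs, 58.8 to 66.9) and 52.2 CPM in colon (1165 UMIs, 49.2 to 55.2). The ratio of 1.20 (1.10 to 1.31) is 0.27 on the log2 scale, next to the 0.20 of the median gene, and it became 0.062 when the libraries were scaled by the median gene. Ccr6+ cells had the highest ratio of the 5 groups, 1.66 (1.24 to 2.23), from 83.3 CPM in small intestine and 50.2 in colon. Ncr1+ cells, which carry the natural cytotoxicity receptor of ILC3s and ILC1s, held 63.4 and 47.1 CPM, a ratio of 1.35 (1.08 to 1.70). Gata3+ cells held 56.4 and 53.6 CPM, Klrd1+ cells 36.2 and 40.1, and Cd3e+ cells 52.4 and 55.2, and the interval of each of these 3 ratios included 1. In order of level, neighbouring groups had overlapping intervals in both tissues, but in small intestine the Ccr6+ interval (68.8 to 99.9) lay above those of Gata3+, Cd3e+ and Klrd1+ cells. Small intestine Ccr6+ cells held 1.37-fold (1.12 to 1.67) the Rara of cells without Ccr6, against 0.96 (0.76 to 1.20) in colon. The small intestine values spanned 36.2 CPM in Klrd1+ to 83.3 in Ccr6+ cells, against 40.1 to 55.2 in colon. The lowest of these rested on 17 UMIs in 172 cells (21.1 to 57.9), and the difference in span was not tested.

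Rarg, the receptor best known from skin and cartilage, was higher in colon in every group. Over all cells it was at 5.11 CPM in small intestine (77 UMIs, 4.03 to 6.38) and 16.3 CPM in colon (365 UMIs, 14.7 to 18.1). The colon level was 3.20-fold higher (2.50 to 4.15). Ccr6+ cells were furthest apart, with 4 UMIs in 541 small intestine cells against 60 UMIs in 357 colon cells. These are 2.87 and 36.7 CPM, and the colon was 12.8-fold higher (4.74 to 48.5). In Ncr1+ cells the levels were 2.95 and 17.0 CPM, 5.77-fold higher in colon (3.06 to 11.5). Gata3+ cells held 5.72 and 14.3 CPM, 2.50-fold higher in colon (1.68 to 3.83). Klrd1+ cells rested on 2 and 27 UMIs, and Cd3e+ cells on 7 and 70 UMIs, with colon 4.04-fold (1.01 to 35.0) and 2.76-fold (1.27 to 7.12) higher. Within the colon, Ccr6+ cells stood apart from the next group, Klrd1+ cells at 17.2 CPM (11.3 to 25.01), while the other 4 groups lay between 14.3 and 17.2 CPM with overlapping intervals. Colon Ccr6+ cells held 2.49-fold (1.86 to 3.30) the level of colon cells without Ccr6. In small intestine the same ratio was 0.54 (0.14 to 1.44), so the interval included 1. The median total was 3443 UMIs in colon Ccr6+ cells against 2366 in small intestine, and after thinning each cell to 1000 UMIs a Rarg UMI was left in 3.36% of colon (1.75 to 5.80) and 0.37% of small intestine Ccr6+ cells (0.045 to 1.33). Without thinning the shares were 13.7% and 0.74%.

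Rxra, a shared partner of RAR, vitamin D, thyroid hormone, PPAR and LXR receptors, was at the edge of detection. It was at 3.25 CPM in small intestine (49 UMIs, 2.40 to 4.30) and 3.27 CPM in colon (73 UMIs, 2.56 to 4.11). The ratio was 0.99 (0.68 to 1.45), so no difference was detectable at this depth. The 10 levels by tissue and group ran from 1.72 CPM in small intestine Cd3e+ cells to 5.45 CPM in colon Cd3e+ cells. That pair rested on 2 and 23 UMIs, and its 3.17-fold higher colon level had an interval from 0.78 to 27.8. Within the colon, Cd3e+ cells held 1.98-fold (1.15 to 3.30) the Rxra of cells without Cd3e. The sister receptors gave more UMIs. Rxrb was at 28.6 CPM in small intestine and 22.7 in colon, a ratio of 1.26 (1.11 to 1.44). Rxrg was at 13.3 and 18.3 CPM, a ratio of 0.73 (0.61 to 0.86), and lay mostly in Gata3+ cells, at 33.7 and 23.8 CPM there against 2.15 and 6.74 in Ccr6+ cells. Within Gata3+ cells the direction turned, with small intestine 1.42-fold higher (1.17 to 1.71). Rarb, the receptor that retinoic acid itself induces in many cells, had 4 UMIs in small intestine and 0 in colon.

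**Figure D1:**
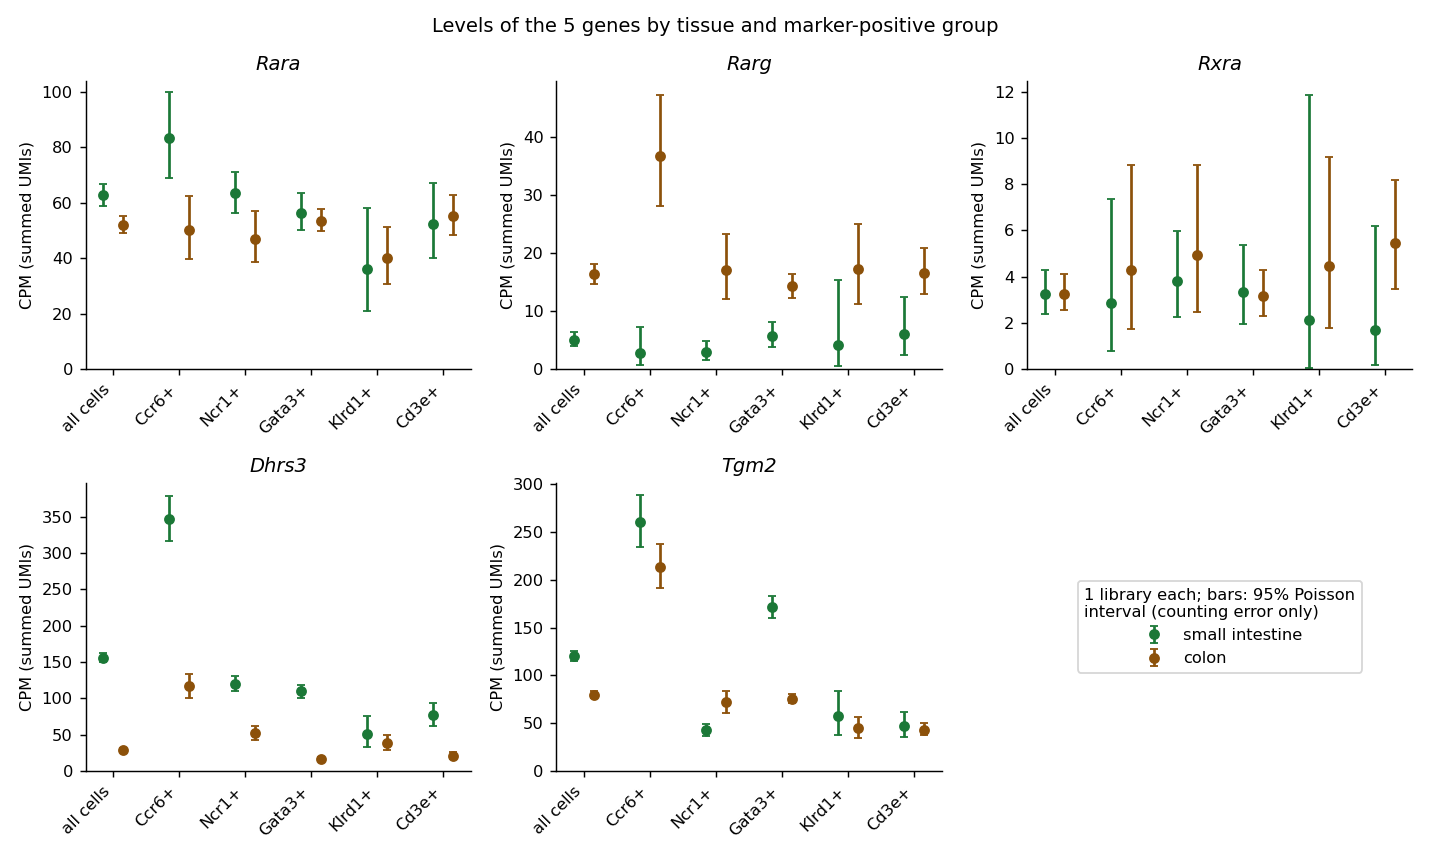
Level of each of the 5 genes as CPM of summed UMIs (vertical axes, different for each gene) by marker-positive group, with 1 library per tissue and bars for the 95% Poisson interval of counting error. Dhrs3 and Tgm2 are highest in Ccr6+ cells of both tissues, and Rarg is highest in colon Ccr6+ cells at 36.7 CPM.

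Dhrs3, the retinaldehyde reductase, was higher in small intestine over all cells and, beyond counting error, in 4 of the 5 groups. Over all cells it was at 156 CPM in small intestine (2352 UMIs, 150 to 162) and 29.0 CPM in colon (647 UMIs, 26.8 to 31.3), a ratio of 5.38 (4.93 to 5.88). The libraries differ in makeup, with Gata3+ cells 29.9% of small intestine and 55.9% of colon cells, and with 7 classes of cells given the same weight in both tissues the ratio was 3.795. Both tissues had their highest level in Ccr6+ cells, 346 CPM (316 to 378) in small intestine and 116 CPM (100.4 to 134) in colon, a ratio of 2.98 (2.51 to 3.54). These 2 levels stood apart from the next group in each tissue. Ncr1+ cells came next, at 120 and 52.0 CPM, a ratio of 2.31 (1.89 to 2.85). Gata3+ cells held 110 and 16.9 CPM and had the largest ratio of the 5 groups, 6.49 (5.55 to 7.61). Over the settings this ratio ran beyond its interval on both sides. It was 5.46 with at least 2 Gata3 UMIs and 9.40 in cells with exactly 1 marker. Cd3e+ cells held 76.4 and 21.3 CPM, a ratio of 3.58 (2.64 to 4.86). Klrd1+ cells held 51.1 and 38.2 CPM, and the interval of their ratio of 1.34 (0.80 to 2.18) included 1. The groups therefore did not rank alike in the tissues. Gata3+ cells lay above Cd3e+ and Klrd1+ cells in small intestine and had the lowest value in colon. The colon Gata3+ interval (14.8 to 19.2) overlapped that of colon Cd3e+ cells (17.2 to 26.2). In colon, Ccr6+ cells held 5.27-fold (4.43 to 6.25) the Dhrs3 of cells without Ccr6, against 2.53-fold (2.29 to 2.80) in small intestine. The small intestine cells with none of the 5 markers were also high, at 202 CPM against 44.1 in colon. After thinning, 14.6% of small intestine cells (13.7 to 15.6) and 2.78% of colon cells (2.42 to 3.18) kept a Dhrs3 UMI, and in Ccr6+ cells 27.9% and 11.2% did. Before thinning the shares were 29.98% and 6.73% over all cells, and 54.7% and 35.0% in Ccr6+ cells.

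Tgm2, the transglutaminase, was 1.503-fold higher (1.41 to 1.60) in small intestine over all cells, but its groups went to different sides. Over all cells it was at 120 CPM in small intestine (1811 UMIs) and 79.9 CPM in colon (1785 UMIs). Gata3+ cells held 171 CPM (160 to 183) in small intestine and 75.6 CPM (71.1 to 80.4) in colon, a ratio of 2.26 (2.07 to 2.48). Ncr1+ cells lay on the other side, with 42.6 CPM (36.9 to 48.9) in small intestine and 71.7 CPM (61.04 to 83.7) in colon. The colon level was 1.68-fold higher (1.36 to 2.08). Over the settings it ran from 1.37-fold, without cells above 3 times the median UMI total, to 4.81-fold, with cells grouped by marker list. That grouping left out genes on several lists, so the Ncr1 list was Ncr1 alone (264 and 66 cells). After thinning, 3.12% (2.32 to 4.09) of small intestine and 4.06% (2.69 to 5.85) of colon Ncr1+ cells kept a Tgm2 UMI, with overlapping intervals. Ccr6+ cells had the highest level of the 5 groups in both tissues, 261 CPM (235 to 289) and 214 CPM (192 to 237). Their ratio of 1.22 (1.05 to 1.42) was small, and its direction turned to 1.39-fold higher in colon when at least 2 Ccr6 UMIs were asked for and to a log2 ratio of -0.23 with cells grouped by marker list. Klrd1+ cells held 57.5 and 44.6 CPM and Cd3e+ cells 47.2 and 43.4, and the intervals of both ratios included 1. Small intestine Ncr1+ cells had the lowest value of the 5 groups. Their interval overlapped those of Cd3e+ (35.6 to 61.5) and Klrd1+ cells (37.9 to 83.6). In small intestine cells with exactly 1 marker, Cd3e cells were lower than Ncr1 cells, at 20.9 against 32.2 CPM. The small intestine cells without Ncr1 held 3.66-fold the level of Ncr1+ cells (3.16 to 4.25). In colon the same ratio was 1.13 (0.96 to 1.33), and its interval included 1. The difference between these ratios was not tested.

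Tgm2 also had cells with many UMIs. Of the small intestine cells, 71 carried 5 or more Tgm2 UMIs and together held 27.1% of its UMIs, with up to 17 in a cell. In colon, 72 such cells held 26.9%, with up to 22 in a cell. The highest count in a cell was 6 for Dhrs3 and 3 for Rara. A Poisson interval assumes no such spread between cells, so the Tgm2 intervals are too narrow by an amount not measured here. After thinning, 8.80% of small intestine cells (8.06 to 9.58) and 5.44% of colon cells (4.94 to 5.98) kept a Tgm2 UMI, against 16.2% and 11.7% before.

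**Figure D2:**
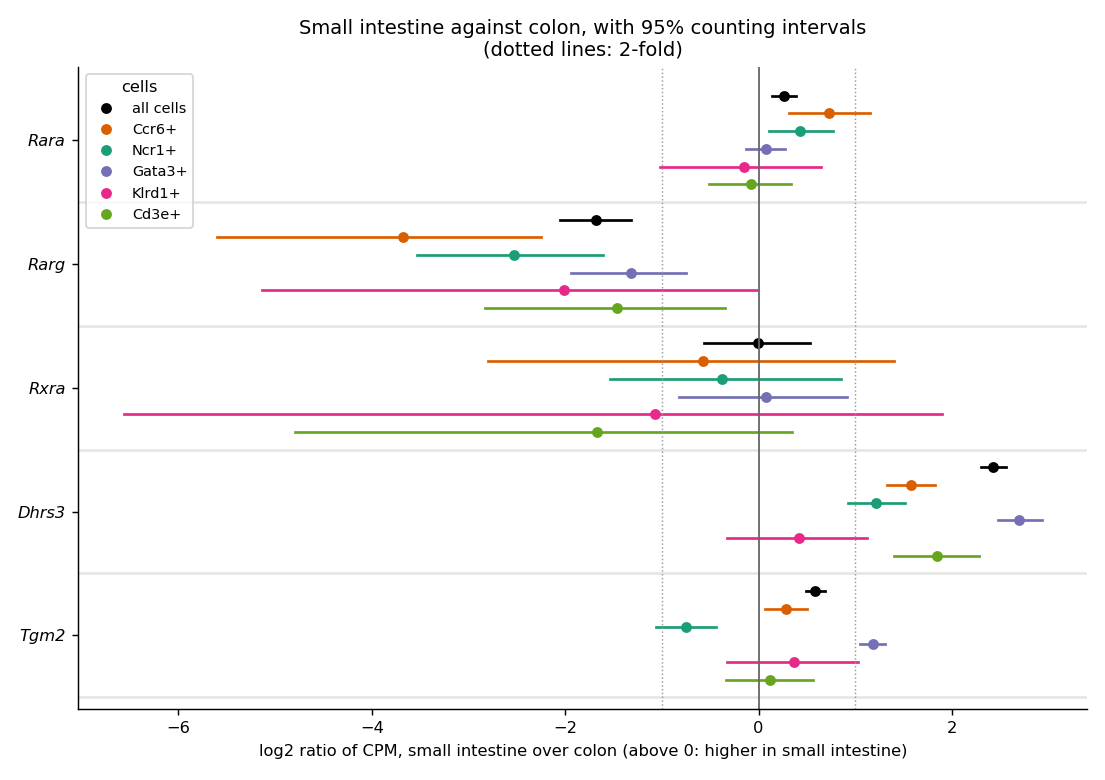
Small intestine level over colon level for each gene on the log2 scale (horizontal axis), over all cells and in the 5 groups, with bars for the 95% counting interval and dotted lines at 2-fold. Dhrs3 points lie right of 0, Rarg points lie left of 0, and Tgm2 lies at 1.18 in Gata3+ and -0.75 in Ncr1+ cells.

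The 5 genes were also counted by a fixed fold beside all genes. A gene was counted with at least 20 UMIs over both libraries and a ratio of at least 2, and with 1 library per tissue this is a size and not a test. Over all cells, 1 of the 5 (Dhrs3) was higher in small intestine, where 8.92% of 11962 genes were, and 1 (Rarg) in colon, where 5.42% were. In Ccr6+ cells, 4 of the 5 had enough UMIs, and Dhrs3 was higher in small intestine (7.47% of genes) and Rarg in colon (3.40% of genes). In Ncr1+ cells, Dhrs3 again was higher in small intestine (9.26%) and Rarg in colon (4.13%), of 5 counted. That Dhrs3 count was lost with at least 2 Ncr1 UMIs (1.77-fold) and, at just under 2-fold, when scaled by the median gene. It was also lost with cells grouped by the marker list with the most UMIs (1.502-fold). For Ncr1+ cells that list was Ncr1 alone, with 264 and 66 cells, so it was no check by other genes of the type. In Gata3+ cells, Dhrs3 and Tgm2 were higher in small intestine (7.42%) and Rarg in colon (4.40%), of 5 counted, with Rarg at 1.99-fold and no longer counted when cells were grouped by marker list. In Klrd1+ cells, 0 of 4 were higher in small intestine (7.17%) and 1, Rarg, in colon (4.88%), which was 1.85-fold and no longer counted with cells grouped by marker list. In Cd3e+ cells, Dhrs3 was higher in small intestine (5.12%) and Rarg and Rxra in colon (4.27%), of 5 counted. Rxra was no longer counted by marker list (1.096-fold, 1786 and 1852 cells) or as the mean CPM over cells (1.99-fold). Other settings added counts. In cells with exactly 1 marker, Rara of Ccr6+ cells reached 2.14-fold (small intestine) and Tgm2 of Ncr1+ cells 2.05-fold (colon). By marker list, Tgm2 of Ncr1+ cells reached 4.81-fold. The median log2 ratio of the 5 genes over all cells was 0.27, beside 0.20 for all genes, since Dhrs3 and Rarg lay to opposite sides.

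A cell enters the Gata3+ group with 1 UMI, and the group also carried Il22, so the genes were also read by the number of Gata3 UMIs in a cell. Klrg1, an inhibitory receptor of ILC2s, was nearly level between the tissues in cells with at least 4 Gata3 UMIs, at 522 and 542 CPM. Il1rl1, the interleukin-33 receptor, was 57.0 and 168 CPM there, so these cells were not alike in every ILC2 marker. Tgm2 in small intestine was 94.2, 93.6, 195 and 288 CPM in cells with 0, 1, 2 to 3 and at least 4 Gata3 UMIs. In colon the same steps were 86.5, 72.2, 72.3 and 83.3 CPM. The ratio thus went from 1.09 (0.99 to 1.20) without Gata3 to 3.46 (2.97 to 4.02) with at least 4 Gata3 UMIs. Dhrs3 went the other way in level, with 179, 166, 82.5 and 36.9 CPM in small intestine and 47.5, 28.4, 11.7 and 10.9 CPM in colon. Its ratio was 3.78, 5.84, 7.06 and 3.40 over these steps, and small intestine was higher at each. Rara was 35.3 CPM (25.7 to 47.4) in small intestine and 54.1 CPM (47.2 to 61.7) in colon in cells with at least 4 Gata3 UMIs, 1.53-fold higher in colon (1.11 to 2.17). Rarg in these cells was 8.83 and 11.4 CPM, and its interval of 0.66 to 2.75 for colon over small intestine included 1.

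**Figure D3:**
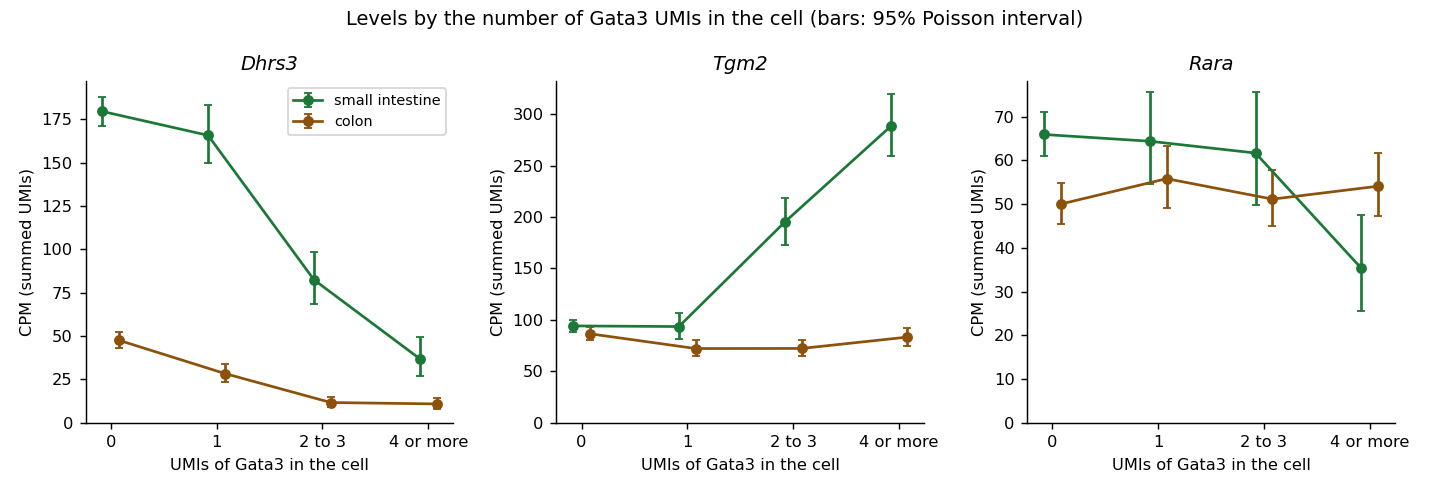
Level of Dhrs3, Tgm2 and Rara as CPM of summed UMIs (vertical axes) in cells with 0, 1, 2 to 3 and 4 or more Gata3 UMIs (horizontal axis), with bars for the 95% Poisson interval. Tgm2 reaches 288 CPM in the small intestine cells with the most Gata3 and stays between 72.2 and 86.5 CPM in colon, and Dhrs3 is lower where Gata3 is higher in both tissues.

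Cells with both targets were counted after thinning. Over all cells, Dhrs3 was found in 18.0% (14.7 to 21.7) of small intestine cells with a Tgm2 UMI and 14.3% (13.3 to 15.3) of those without. In colon the shares were 6.57% (4.37 to 9.41) and 2.56% (2.21 to 2.96). Within Ccr6+ cells the shares with and without Tgm2 were 27.5% and 28.0% in small intestine and 12.5% and 10.96% in colon, and within Gata3+ cells 11.3% and 10.4%, and 0.87% and 1.25%. In Ncr1+ cells the shares with Tgm2 were the larger ones, 18.0% and 10.8% in small intestine and 11.1% and 5.80% in colon. The shares with Tgm2 there rested on 9 of 50 cells (8.58 to 31.4) and 3 of 27 cells (2.35 to 29.2). Colon Klrd1+ cells gave 14.3% and 4.70%, and colon Cd3e+ cells 3.03% and 1.92%, from 2 and 1 cells with both. Small intestine Klrd1+ cells gave 14.3% and 3.64% from 1 cell with both, and Cd3e+ cells 0 of 15 and 7.005%. The intervals with and without Tgm2 overlapped in each of the 5 groups of both tissues. For Rara the intervals overlapped, with Dhrs3 in 15.7% (11.97 to 20.003) of small intestine cells with Rara and 14.5% (13.6 to 15.5) of those without.

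The genes that make, carry or degrade retinoic acid were mostly near 0 in these sorted cells. Of 22 such genes, 15 had a UMI in either library and 6 reached 20 UMIs. Rdh10, which makes retinaldehyde from retinol, was at 5.37 CPM in small intestine and 2.60 in colon, a ratio of 2.07 (1.46 to 2.95), and was the 1 of these 6 genes at least 2-fold apart (8.92% of all genes were higher in small intestine and 5.42% in colon). In Gata3+ cells its ratio was 2.36 (1.41 to 3.94). Aldh1a2, the retinaldehyde dehydrogenase of gut dendritic cells, and Stra6, a retinol transporter, had 0 UMIs in both libraries. Cyp26a1 had 5 UMIs in small intestine and 0 in colon, and Lrat and Crabp2 had 1 and 0 each. Fabp5, which carries retinoic acid to PPAR delta, was 3.59 and 9.80 CPM in Ccr6+ cells from 5 and 16 UMIs, with an interval of 0.95 to 9.52 for colon over small intestine. The median log2 ratio of the 6 genes was 0.15, against 0.20 for all genes.

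Of 12 other receptors and RXR partners, 9 reached 20 UMIs, and 1 was at least 2-fold higher in each tissue (8.92% and 5.42% of all genes). Vdr, the vitamin D receptor, was at 2.98 CPM in small intestine and 1.30 in colon (2.30-fold, 1.41 to 3.801). Pparg, a lipid-sensing receptor found in ILC2s, was at 7.56 and 20.2 CPM, 2.67-fold higher in colon (2.17 to 3.30). Within Gata3+ cells it was 19.9 and 27.0 CPM, 1.36-fold higher in colon (1.08 to 1.71). Nr4a1, an immediate early gene and RXR partner, was 1379 and 501 CPM in Ccr6+ cells, 2.75-fold higher in small intestine (2.54 to 2.99). Of the 12 cofactors, such as the corepressor Ncor1 at 388 and 364 CPM, 0 were 2-fold apart over all cells (8.92% and 5.42% of all genes). In Ccr6+ cells, where 7.47% of all genes were higher in small intestine, the coactivators Kat2b (2.78-fold, 1.59 to 5.03) and Ncoa1 (2.16-fold, 1.20 to 3.999) were higher in small intestine, each from 19 colon UMIs.

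Of 17 other genes described as responsive to retinoic acid (some stand in the lists above, and Plaat3 matched no name in the files), 7 reached 20 UMIs, and 2 were at least 2-fold higher in small intestine (8.92% of all genes) and 0 in colon (5.42%). Their median log2 ratio was 0.67, against 0.20 for all genes. Ccr9, the receptor that guides lymphocytes to the small intestine, was at 128.5 CPM in small intestine and 10.0 in colon, 12.8-fold (11.2 to 14.8). In Ncr1+ cells it was 211 and 4.48 CPM, 47.1-fold (25.5 to 98.6), and in Gata3+ cells 121 and 9.10 CPM, 13.3-fold (10.95 to 16.3). In Ccr6+ cells it was 45 UMIs against 1, a ratio of 52.8 with an interval of 9.003 to 2131. Dhrs3 and Ccr9 thus shared a direction but not an order of groups, since Ccr9 in small intestine was 211 CPM in Ncr1+ and 32.3 in Ccr6+ cells, where Dhrs3 was 120 and 346. Cd38, an NAD-consuming surface enzyme, was 44.4 and 21.4 CPM (2.08-fold, 1.84 to 2.34). Hic1, a transcriptional repressor that retinoic acid induces in gut lymphocytes, was 50.1 and 24.6 CPM in Gata3+ cells (2.03-fold, 1.72 to 2.40). The homing integrin genes lay near level, Itga4 at a ratio of 1.16 (1.08 to 1.24) and Itgb7 at 0.83 (0.80 to 0.86).

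**Figure D4:**
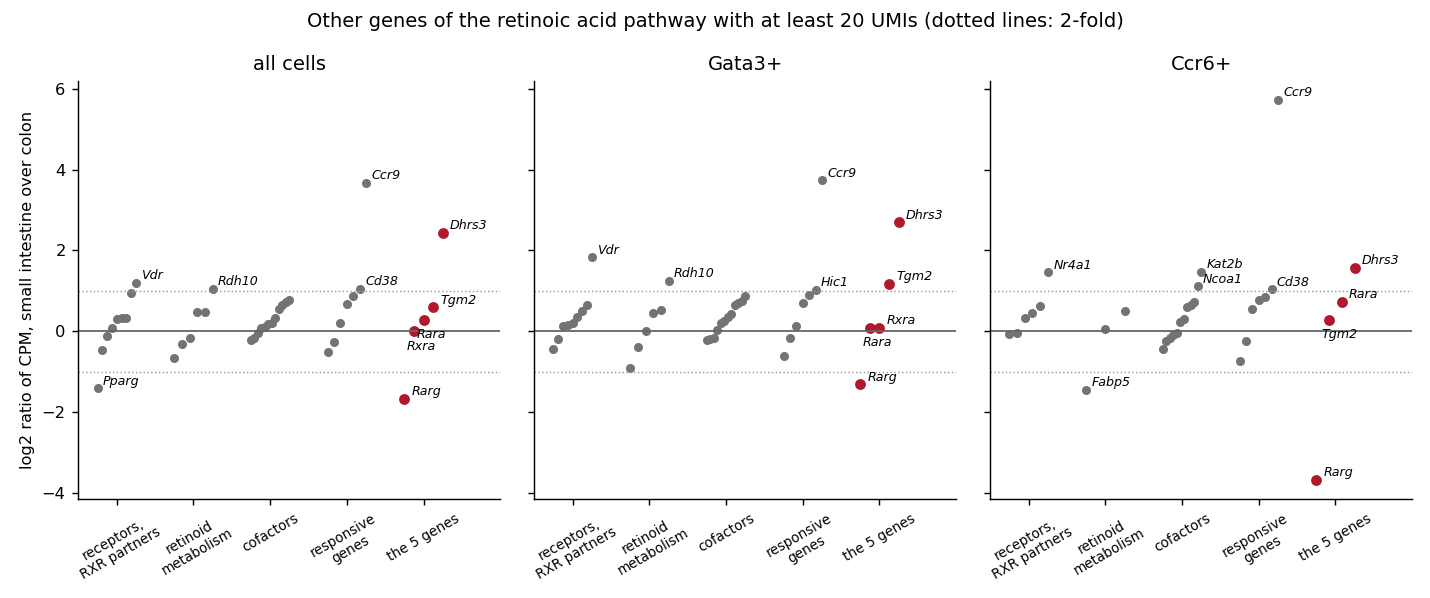
Small intestine over colon ratio on the log2 scale (vertical axis) for genes of 4 lists of the retinoic acid pathway (grey) and for the 5 genes (red), each with at least 20 UMIs, in all cells, Gata3+ cells and Ccr6+ cells. Dotted lines mark 2-fold, genes beyond it are named, and Ccr9 and Dhrs3 lie highest in each panel.

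Genes with the most similar pattern were sought among 9898 genes with at least 50 UMIs, over 10 groups of cells positive for exactly 1 marker in 1 tissue, by Pearson's r of log2(CPM + 10). For Rara these were Tmpo (r = 0.98), Alkbh7 and Osbpl2. For Rarg they were Ppp1cc (r = 0.94), Fth1 and Slc25a42. For Dhrs3 they were Cnot2 (r = 0.96), Cirbp and Lpxn. For Tgm2 they were Rgs12 (r = 0.95), Ppfibp2 and Ccdc122. For Rxra, with 73 UMIs in these cells, they were Dvl3 (r = 0.97), Chka and Polr3f. The 10 points share 2 libraries, some groups are small, and the best of 9898 genes is high by selection, so these are descriptions. Among the 5 genes, Dhrs3 and Tgm2 had r = 0.52, and Rarg and Dhrs3 had r = -0.28.

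RNA outside the cells and other cell types were read beside these levels. No group here is known to lack the 5 genes, so near-empty barcodes with 10 to 50 UMIs served as background. Free RNA was estimated at 5.36% of UMIs in small intestine and 8.25% in colon cells. In the near-empty barcodes Dhrs3 was at 171 CPM in small intestine and 40.0 in colon, Tgm2 at 129 and 102, Rara at 59.4 and 47.0, and Rarg at 8.25 and 19.1. Rxra was at 1.65 and 2.90. The free RNA of each tissue thus leaned to the same side as its cells for Rara, Dhrs3, Tgm2 and Rarg. With the estimated free RNA subtracted, 30 of 30 ratios stayed within their counting intervals. Counts left under 3 UMIs were set to 3, which raised the lowest counts, so for these the setting was no subtraction. Rxra in Klrd1+ cells, from 1 and 7 UMIs, went from a log2 ratio of -1.07 to 0.55. Rxra in Cd3e+ cells went from -1.67 to -1.06, and Rarg in Klrd1+ cells from -2.01 to -1.33. Of the B and plasma cell markers, the antibody gene Igkc was at 3927 CPM in small intestine and 1324 in colon, and the B cell gene Ms4a1 at 0.13 and 0.18. The 8 myeloid markers summed to 35.3 and 10.5 CPM, with Csf1r at 0 in both. The 7 epithelial markers summed to 27.9 and 14.4 CPM. The 7 stromal and endothelial markers summed to 59.2 and 27.6 CPM, nearly all Pecam1, with Col1a1 and Pdgfra at 0. The part of these cells in the levels of the 5 genes was not tested beyond the subtraction.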

How the data were processed

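IL7ra+ ILCs of small intestine and colon were profiled, 1 library per tissue. The authors made UMI counts per gene and cell with Cell Ranger 3.0.2 on mm10, per the submitters' processing notes, and deposited whole-number counts, not normalized; how they chose the cells is not given in the sources used here. The deposited table of chosen cells matched the deposited matrices in every value, and the libraries shared 60 barcodes, where 56.2 were expected by chance. Libraries held 15080081 and 22332691 UMIs in these cells, mitochondrial medians were 2.49% and 2.69%, and that depth sets the intervals.

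Counts were summed over groups of cells and divided by the group's UMI total (CPM). Intervals at 95% were exact Poisson for levels, exact conditional binomial for ratios and Clopper-Pearson for shares, and cover counting error only. No count model was run, since each tissue had 1 library. Shares were read after thinning each cell to 1000 UMIs, and 0 cells were below that depth. A ratio of at least 2 with at least 20 UMIs over both libraries was counted, and where both were at or under 3 UMIs no ratio was given. No doublet caller was run; cells above 3 times the median total and cells with several markers were left out as alternatives. The 5 genes, the lists and the tests were chosen with earlier results of these data known. Named pathway genes were those at least 2-fold apart over all cells or in Gata3+ or Ccr6+ cells, those with at most 5 UMIs where stated, and a few others chosen after their values were seen (Rxrb, Rxrg, Ncor1, Itga4, Itgb7). Likeness took the 3 genes of highest r, with marker, mitochondrial, ribosomal, antibody, T cell receptor and sex-linked genes left out. Promoters came from the RefSeq table of GRCm38.p6. The ratio and its interval were tested on counts simulated from a Poisson model. The interval assumes the same model, so this checked the computation and not the spread between cells or mice. Python 3.11.15, numpy 2.4.6, scipy 1.17.1, pandas 2.3.3 and matplotlib 3.10.9 were used. Some marker values are not reported here.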

Additional observations from a re-analysis of the deposited data

Results flagged for a closer look

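Tgm2 went to opposite sides of the colon level in different groups of the same libraries. Its log2 ratio of small intestine over colon was 0.29 (0.07 to 0.50) in Ccr6+ cells and 1.18 (1.05 to 1.31) in Gata3+ cells, and -0.75 (-1.06 to -0.44) in Ncr1+ cells. With 1 library per tissue, the difference between these groups was not tested, and the Tgm2 intervals are too narrow, as described above. The Ccr6+ value changed sign with at least 2 Ccr6 UMIs (-0.47) and with cells grouped by marker list (-0.23). It was 0.03 in cells with exactly 1 marker. The Gata3+ and Ncr1+ values kept their sign in all settings tried.

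Barcodes that the authors left out of their table also carried the genes. There were 286 such barcodes in small intestine and 228 in colon with at least as many UMIs as the smallest cell of the table, and their median mitochondrial share was 5.39% and 5.51%, above the highest share of a cell in the table, 4.63% and 4.94%. In small intestine they held Rara at 62.3 CPM, Dhrs3 at 166 CPM and Tgm2 at 127 CPM. In colon they held Rara at 22.2 CPM, Rarg at 17.3 CPM, Dhrs3 at 34.6 CPM and Tgm2 at 69.1 CPM. The counting intervals were wide, for Rara in colon 10.2 to 42.2 CPM against 52.2 in the cells of the table, and no control sample was at hand.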

How the results depend on the processing

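No paired analysis was possible because each tissue has 1 library, and no library could be left out for the same reason. Of 229 recomputed ratios, 197 stayed within their counting interval and 32 moved beyond it. Of the 197, 30 came from the filter on UMIs and mitochondrial share, which removed 0 cells, so these could not move. With median-ratio size factors, the all-cell log2 ratios became 0.062 for Rara, 2.22 for Dhrs3 and 0.38 for Tgm2. With the mean CPM over cells they were 2.71 for Dhrs3 and 0.75 for Tgm2. With 7 classes of cells weighted alike in both tissues, chosen after seeing the data, Dhrs3 was 1.92. At 1.5-fold in place of 2-fold, 2 genes were higher in small intestine over all cells, 2 in Ccr6+ cells, and 2 higher in colon in Ncr1+ cells. Thinning to 500 UMIs gave differences in share of -0.55 percentage points for Rarg, 5.89 for Dhrs3 and 1.36 for Tgm2. Grouping by marker panels left out genes on several panels, so the Ncr1 panel was Ncr1 alone, with 264 and 66 cells. It moved Tgm2 in Ncr1+ cells to 4.81-fold higher in colon and Dhrs3 in Ncr1+ cells to 1.502-fold. It also moved Tgm2 in Ccr6+ cells to a log2 ratio of -0.23 and Rarg in Gata3+ cells to 1.99-fold higher in colon. Tgm2 in Ccr6+ cells with at least 2 Ccr6 UMIs was -0.47. In cells with exactly 1 marker, Rara of Ccr6+ cells was 2.14-fold higher in small intestine and Tgm2 of Ncr1+ cells 2.05-fold higher in colon. Rara in Gata3+ cells, main value 0.08, ran from -0.20 to 0.09. Dhrs3 in Gata3+ cells, main log2 ratio 2.70, ran from 2.45 to 3.23. The cause of these moves was not tested. Dhrs3 kept small intestine higher and Rarg kept colon higher in every setting that gave a value, in each group. Requiring 1000 UMIs and at most 10% mitochondrial UMIs removed 0 cells. Settings that left a library at 0 UMIs gave no value. With a pseudocount of 1 CPM, 1 of the 3 most similar genes remained for Rarg, Rxra and Tgm2. Depth limits Rxra, Rarg in small intestine and the Klrd1+ group.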

Other observations

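The cells with none of the 5 markers made up 34.3% of the small intestine and 21.4% of the colon library. Antibody RNA was high in their sum, with Igkc at 11342 CPM in small intestine and 6657 in colon, against 191 and 55.1 in Ccr6+ cells. In all, 5477 of 5490 small intestine and 7539 of 7549 colon cells carried at most 10 UMIs of Igkc, Igha and Jchain together. Most of this antibody RNA therefore lay in a few cells. The 7 epithelial markers summed to 64.9 and 10.3 CPM in the cells with none of the 5 markers. The part of either in the levels below was not tested. In small intestine they held Dhrs3 at 202 CPM and Rara at 70.2 CPM, and in colon 44.1 and 50.2 CPM. Tgm2 there was 113 CPM in small intestine and 105 in colon, a ratio of 1.07 (0.94 to 1.22), and Rarg was 6.42 and 16.9 CPM.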
